A study of Mus musculus with 8 samples.

Results

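The 34 genes described here are named together as sinusoidal endothelial genes, and were taken by symbol from the count tables, which hold 24786 genes. All 34 were found, and all 34 were among the 15254 genes that passed the filter on low counts. They were measured in polyA RNA of liver macrophages from C57BL/6 mice. There were 8 libraries in 4 groups of 2. Liver-resident Kupffer cells, which patrol the sinusoids, were taken from dnTGFβRII (TG) mice and from wild-type (WT) mice, and so were macrophages that derive from blood monocytes (MoM). In dnTGFβRII mice a truncated type II receptor for TGF-β, driven by the CD4 promoter, blocks TGF-β signalling in T cells, and the animals develop inflammation around the bile ducts. The transgene is thus aimed at T cells. Whether macrophages or endothelium expressed it was not examined. The labels give no age or sex. They do not say how the macrophages were isolated or gated, nor whether the 2 libraries of a group came from separate animals, so the p-values measure only the spread between these libraries. Libraries are called by group and number, such as TG Kupffer 2.

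Liver sinusoidal endothelial cells line the capillaries of the liver lobule. Their wall is fenestrated and has no continuous basement membrane, so plasma reaches the hepatocytes freely, and they take up waste macromolecules through scavenger receptors and lectins. VEGF receptors and the angiopoietin receptors sustain these cells, and the cells themselves release Wnt ligands, R-spondin 3 and BMP ligands that set the zones of the lobule and its iron balance. Kupffer cells lie inside the sinusoid, in contact with this endothelium. Some genes of the set are also active outside endothelium: Cdh5 in Kupffer cells, and Pecam1 and Nrp1 in several leukocytes.

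The label of the set was checked against 24 other endothelial genes, among them Stab2, a scavenger receptor of the sinusoid. Their summed level was 4829 CPM (counts relative to library size, scaled by the TMM method of edgeR) in TG Kupffer 2 and 3025 CPM in WT MoM 1, and 292 to 1440 CPM in the other 6 libraries. Of these 24 genes, 20 stood higher in both of these libraries than in each of the other 6, beside 7.85% of all genes tested. Stab2 itself was also high in the other Kupffer libraries, at 350 to 572 CPM, beside 1424 CPM in TG Kupffer 2. Acvrl1, of the same list and chosen after its values were seen, stood at 151 CPM in TG Kupffer 2. In the other Kupffer libraries it stood higher, at 182 to 205 CPM. The macrophage labels were checked too. The summed level of 12 Kupffer markers, led by the lectin Clec4f, was 33343 to 34783 CPM in TG Kupffer 1 and both WT Kupffer libraries, but 16887 CPM in TG Kupffer 2. In MoM it was 390 to 919 CPM in 3 libraries, but 10262 CPM in WT MoM 1. TG Kupffer 2 and WT MoM 1 thus stood apart from their groups in both sums. Not every Kupffer marker was low in TG Kupffer 2. Of those chosen after their values were seen, Spic was highest there, at 165 CPM beside 94.3 to 115 CPM in the other Kupffer libraries. Il18bp (615 CPM, beside 522 to 661 CPM) and Marco (3309 CPM, beside 687 to 5492 CPM) lay within their range. The remaining markers of the list were lower there than in each other Kupffer library. The summed level of 12 monocyte markers was 270 to 543 CPM in the Kupffer libraries and 1065 to 5725 CPM in MoM, lowest there in WT MoM 1. Library totals lay between 26190194 and 30308132 counts.

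Promoters are shown for 4 of the genes that were higher in TG Kupffer 2 and WT MoM 1 than in all other libraries, because these genes moved together. They are the 4 with the highest levels per kilobase of exon among those with a RefSeq promoter. The sequences are RefSeq's for GRCm38.p6, from 250 bases before to 50 bases after the start. Capitals mark matches, on either strand, to AGGAAG, the core that ETS factors bind, a family that includes the endothelial regulators Erg and Fli1.
Aqp1 (chr6:55336049-55336348, plus strand): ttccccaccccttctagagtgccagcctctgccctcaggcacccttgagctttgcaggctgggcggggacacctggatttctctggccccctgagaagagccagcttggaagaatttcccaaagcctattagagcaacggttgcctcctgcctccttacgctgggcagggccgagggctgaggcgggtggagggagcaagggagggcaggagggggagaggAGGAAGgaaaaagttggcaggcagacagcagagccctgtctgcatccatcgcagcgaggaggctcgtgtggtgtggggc
Clec4g (chr8:3720602-3720901, minus strand): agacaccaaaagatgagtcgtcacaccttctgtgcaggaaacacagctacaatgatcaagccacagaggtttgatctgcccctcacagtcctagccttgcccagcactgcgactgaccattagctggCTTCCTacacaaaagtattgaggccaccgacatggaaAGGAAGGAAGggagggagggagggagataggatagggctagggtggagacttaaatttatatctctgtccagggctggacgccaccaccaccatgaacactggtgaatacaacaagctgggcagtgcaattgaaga
Eng (chr2:32646345-32646644, plus strand): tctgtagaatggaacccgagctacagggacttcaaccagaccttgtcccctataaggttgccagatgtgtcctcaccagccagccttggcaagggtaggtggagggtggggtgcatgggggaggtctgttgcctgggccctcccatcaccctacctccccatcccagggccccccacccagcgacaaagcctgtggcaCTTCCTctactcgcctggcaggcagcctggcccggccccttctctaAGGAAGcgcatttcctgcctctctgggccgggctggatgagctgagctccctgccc
Ehd3 (chr17:73804591-73804890, plus strand): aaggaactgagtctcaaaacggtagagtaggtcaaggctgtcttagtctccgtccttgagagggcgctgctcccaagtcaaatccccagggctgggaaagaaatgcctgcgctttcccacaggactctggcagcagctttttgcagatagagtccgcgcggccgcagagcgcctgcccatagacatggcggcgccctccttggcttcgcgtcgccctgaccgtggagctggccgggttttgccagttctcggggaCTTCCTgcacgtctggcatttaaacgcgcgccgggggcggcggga

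Clec4g held 3 matches, of which 2 overlapped, Eng held 2, and Aqp1 and Ehd3 held 1 each. RefSeq promoters were found for 19 of the 34 genes, 22 promoters in all, and 13 of the 22 (59.1%) held AGGAAG, beside 35.4% of all 32851 mouse promoters of that length. The GATA core AGATAA was in 1 of the 22 (4.55%), beside 11.2% of all, and the SOX core AACAAT in 2 (9.09%), beside 10.7%. A match is a run of letters and not a measured binding site. For Aqp1 and Ehd3 the RefSeq start differs from that of the GENCODE M21 gene model (55336432 and 73804134).

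TG Kupffer 2 and WT MoM 1 carried by far the most sinusoidal endothelial RNA. The 34 genes summed to 19614 CPM in TG Kupffer 2 and to 12553 CPM in WT MoM 1. TG MoM 2 followed with 5582 CPM and WT MoM 2 with 5255 CPM. WT Kupffer 2 had 2569 CPM, TG Kupffer 1 had 1992 CPM, WT Kupffer 1 had 1967 CPM and TG MoM 1 had 1284 CPM. The libraries of 1 group were thus often further apart than the groups. TG Kupffer 2 had 9.85 times the sum of TG Kupffer 1, and WT MoM 1 had 2.39 times that of WT MoM 2. The order of the 4 lowest sums rested on Cdh5, at 973 to 1300 CPM in their Kupffer libraries. Without Cdh5, Nrp1 and Pecam1, chosen after their values were seen, TG MoM 1 had 835 CPM and was not the lowest. By that sum WT Kupffer 2 had 850 CPM, TG Kupffer 1 had 518 CPM and WT Kupffer 1 had 369 CPM. In bulk RNA, fewer cells of a type and less RNA per cell cannot be told apart.

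**Figure D1:**
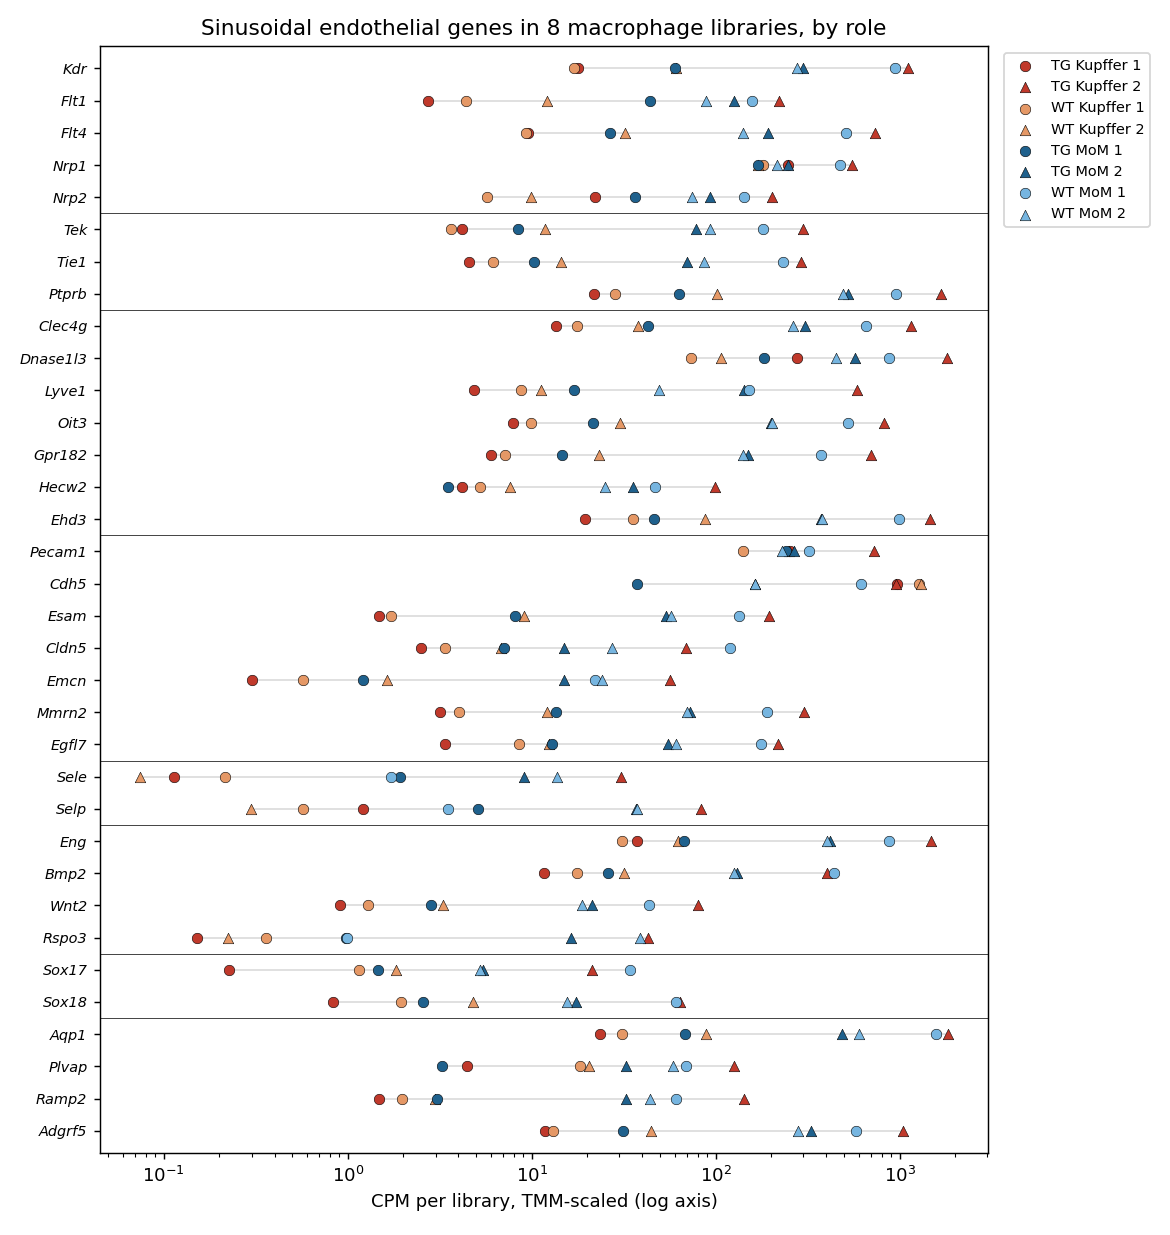
Level of each of the 34 genes in the 8 libraries, in TMM-scaled CPM on a log axis, with genes grouped by role and 1 point per library. TG Kupffer 2 (dark red triangle) is the rightmost point for 30 genes, WT MoM 1 (light blue circle) for 3, and WT Kupffer 2 for Cdh5.

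Ranked gene by gene, TG Kupffer 2 was the highest of the 8 libraries for 30 genes. WT MoM 1 was the highest for 3 (Cldn5, Bmp2 and Sox17) and WT Kupffer 2 for Cdh5. TG Kupffer 1 was the lowest for 21. All 34 genes reached 10 CPM in TG Kupffer 2, 31 in WT MoM 1, 32 in TG MoM 2 and 33 in WT MoM 2, against 22 in WT Kupffer 2, 21 in TG MoM 1, 13 in TG Kupffer 1 and 13 in WT Kupffer 1. For 29 of the 34 genes (85.3%) TG Kupffer 2 and WT MoM 1 both stood above each of the other 6 libraries. Of all genes tested, 7.85% did so. The libraries were named from earlier results of these data, so the share is a description. The other 5 genes were Cdh5, Emcn, Sele, Selp and Rspo3.

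Of the VEGF receptors, Kdr (VEGFR2; chromosome 5, 75932827 to 75978458, minus strand, GRCm38) carries most of the growth and survival signal in endothelium. It stood at 17.8 and 1107 CPM in TG Kupffer 1 and 2, at 17.02 and 60.7 CPM in WT Kupffer 1 and 2, at 60.3 and 297 CPM in TG MoM 1 and 2, with 946 and 277 CPM in WT MoM 1 and 2. TG Kupffer 2 was thus 18.2-fold above the next Kupffer library and WT MoM 1 was 3.19-fold above the next MoM library. The Kupffer and MoM libraries overlapped in TG and did not overlap in WT.

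Flt4 (VEGFR3), the receptor for VEGF-C, was close to Kdr in shape, with 734 CPM in TG Kupffer 2, 513 CPM in WT MoM 1, 26.6 to 193 CPM in the other MoM libraries and 9.27 to 32.1 CPM in the other Kupffer libraries. Flt1 (VEGFR1), which binds VEGF-A tightly and limits its supply, stood at 220 CPM in TG Kupffer 2, at 44.0 to 157 CPM in the 4 MoM libraries and at 2.72 to 12.2 CPM in the other Kupffer libraries. Its margin in WT MoM 1 over the next MoM library was only 1.24-fold.

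The neuropilins, co-receptors for VEGF and semaphorins, differed from these. Nrp1 (chromosome 8, 128358604 to 128503363) was high everywhere: 247 and 550 CPM in TG Kupffer, 181 and 169 CPM in WT Kupffer, 170 and 246 CPM in TG MoM, and 472 and 216 CPM in WT MoM. Its highest library exceeded the next Kupffer library by 2.22-fold. Nrp2 stood at 22.1 and 203 CPM in TG Kupffer, 5.71 and 9.93 CPM in WT Kupffer, 36.3 and 93.6 CPM in TG MoM, and 143 and 74.5 CPM in WT MoM. Both TG Kupffer libraries lay above both WT Kupffer libraries for Nrp2, and TG Kupffer 2 lay 9.22-fold above TG Kupffer 1.

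The angiopoietin receptor system followed Kdr. Tek (Tie2), the receptor itself, stood at 297 CPM in TG Kupffer 2 and 182 CPM in WT MoM 1, with 8.43 to 93.6 CPM in the other MoM libraries and 3.66 to 11.9 CPM in the other Kupffer libraries. Tie1, its partner receptor, stood at 291 and 231 CPM in the same libraries and at 4.54 to 86.3 CPM in the other 6. Ptprb (VE-PTP), the phosphatase that restrains Tek, stood at 1687 and 961 CPM, with 62.9 to 521 CPM in the remaining MoM libraries and 21.8 to 101 CPM in the remaining Kupffer libraries.

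Among the genes of sinusoidal endocytosis and identity, the margin of TG Kupffer 2 over the next Kupffer library ran from 6.58-fold to 51.8-fold. Clec4g (LSECtin; chromosome 8, 3707064 to 3720651, minus strand), a lectin of sinusoidal endothelium whose promoter is printed above, stood at 13.6 and 1160 CPM in TG Kupffer 1 and 2, at 17.7 and 37.9 CPM in WT Kupffer, with 43.0 and 306 CPM for TG MoM and 658 and 262 CPM for WT MoM. TG Kupffer 2 lay 30.6-fold above the next Kupffer library. Lyve1, the hyaluronan receptor, stood at 585 CPM in TG Kupffer 2 and at 4.84 to 11.3 CPM in the remaining Kupffer libraries, a 51.8-fold margin. In MoM, its 152 CPM in WT MoM 1 was hardly above the 142 CPM of TG MoM 2, with 49.4 CPM in WT MoM 2 and 16.9 CPM in TG MoM 1.

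Gpr182, a chemokine-binding receptor of sinusoids, stood at 699 CPM in TG Kupffer 2 and 374 CPM in WT MoM 1, and at 5.97 to 150 CPM in the other 6. Oit3, a secreted zona pellucida domain protein of sinusoidal endothelium, stood at 825 and 522 CPM in these libraries and at 7.94 to 202 CPM in the other 6. Ehd3, an endocytic recycling protein, stood at 1463 and 991 CPM, and at 19.5 to 378 CPM in the other 6. Hecw2, a ubiquitin ligase, stood lower, at 99.4 and 46.9 CPM, and at 3.50 to 35.4 CPM in the other 6. Each of the 4 had its highest level in TG Kupffer 2 and the next in WT MoM 1.

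Dnase1l3, a secreted nuclease that degrades DNA in cell debris, is made by macrophages as well as by endothelium. It stood at 275 and 1809 CPM in TG Kupffer, 73.7 and 107 CPM in WT Kupffer, 183 and 573 CPM in TG MoM, and 874 and 451 CPM in WT MoM. TG Kupffer 1, the lowest library for 21 genes of the set, lay above both WT Kupffer libraries here.

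The junction genes split in 2 kinds. Cdh5 (VE-cadherin; chromosome 8, 104101625 to 104144511), the adhesion molecule of endothelial junctions, stood at 973 and 953 CPM in TG Kupffer and at 1278 and 1300 CPM in WT Kupffer, with 37.2 and 164 CPM for TG MoM and 613 and 164 CPM for WT MoM. It was the only gene of the set for which TG Kupffer 2 was not the highest Kupffer library. Pecam1 (CD31), an adhesion molecule of endothelium and leukocytes, ranged from 140 CPM in WT Kupffer 1 to 729 CPM in TG Kupffer 2, with 230 to 323 CPM in the 4 MoM libraries. Without Cdh5, Nrp1 and Pecam1, chosen after their values were seen, the other 31 genes summed to 17382 CPM in TG Kupffer 2 and to 369 to 850 CPM in the other Kupffer libraries, so that TG Kupffer 2 had 33.5 times the sum of TG Kupffer 1.

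The other junction and matrix genes were near absent from most Kupffer libraries. Esam, a tight junction adhesion molecule, stood at 195 CPM in TG Kupffer 2 and 134 CPM in WT MoM 1, and at 1.47 to 57.4 CPM in the other 6. Mmrn2, an extracellular matrix protein of vessels, stood at 301 and 191 CPM and at 3.18 to 72.4 CPM in the other 6. Egfl7, a secreted vascular regulator, stood at 219 and 177 CPM and at 3.36 to 60.9 CPM in the other 6. Cldn5, the claudin of endothelial tight junctions, reversed the order, with 120 CPM in WT MoM 1 and 68.8 CPM in TG Kupffer 2, and 2.49 to 27.4 CPM in the other 6. Emcn, the endothelial sialomucin, stood at 56.6 CPM in TG Kupffer 2, but its 22.0 CPM in WT MoM 1 lay below the 24.0 CPM of WT MoM 2.

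The selectins, which catch leukocytes on activated endothelium, gave a different picture. Selp (P-selectin; chromosome 1, 164115264 to 164150026) stood at 1.21 and 83.7 CPM in TG Kupffer, at 0.575 and 0.299 CPM in WT Kupffer, with 5.08 and 36.7 CPM for TG MoM and 3.52 and 37.5 CPM for WT MoM. Sele (E-selectin; chromosome 1, 164048234 to 164057677) stood at 30.6 CPM in TG Kupffer 2, at 13.6 CPM in WT MoM 2, at 9.03 CPM in TG MoM 2, but only at 1.73 CPM in WT MoM 1, and at 0.0747 to 1.92 CPM in the remaining libraries. WT MoM 1, second of all libraries in the summed set, was thus low for both selectins. Platelets also hold P-selectin RNA. The summed level of 8 platelet markers was 7.96 CPM in TG Kupffer 2, 9.94 CPM in WT MoM 1, 18.8 to 20.6 CPM in the other MoM libraries and 2.38 to 2.99 CPM in the other Kupffer libraries. The part of platelet RNA in the Selp level was not tested. Selp shares 9.93% of its exon bases with Gm16548 on the opposite strand, which stood at 0 to 17.1 CPM, and the authors' strand setting is not given in the sources used here.

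Among the receptors and secreted signals, Eng (endoglin), the co-receptor for BMP9 and TGF-β, stood at 1486 CPM in TG Kupffer 2 and 881 CPM in WT MoM 1, at 405 to 421 CPM in TG MoM 2 and WT MoM 2, with 67.4 CPM for TG MoM 1 and 30.9 to 62.6 CPM for the remaining Kupffer libraries. Bmp2, a BMP ligand by which endothelium tells hepatocytes to make hepcidin, was highest in WT MoM 1, with 442 CPM, followed by 405 CPM in TG Kupffer 2 and 11.6 to 131 CPM in the other 6. Wnt2, an endothelial Wnt ligand for hepatocytes, stood at 79.8 CPM in TG Kupffer 2, 43.2 CPM in WT MoM 1 and 0.907 to 21.4 CPM in the other 6.

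Rspo3 (R-spondin 3; chromosome 10, 29452416 to 29535867, minus strand), which amplifies Wnt signalling and comes chiefly from endothelium of the central vein, went apart from Wnt2. It stood at 0.151 and 43.1 CPM in TG Kupffer, 0.359 and 0.224 CPM in WT Kupffer, 0.979 and 16.4 CPM in TG MoM, and 0.988 and 38.8 CPM in WT MoM. The level in WT MoM 1 rests on 32 counts and that in WT MoM 2 on 1206 counts. WT MoM 2 was thus close to TG Kupffer 2 in Rspo3, although far below it in Kdr, and WT MoM 1 had next to no Rspo3.

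Sox17 and Sox18, transcription factors of endothelial identity, stood at low levels. Sox17 was highest in WT MoM 1, with 34.2 CPM, against 21.2 CPM in TG Kupffer 2 and 0.227 to 5.45 CPM in the other 6. Sox18 stood at 64.2 CPM in TG Kupffer 2 and 60.6 CPM in WT MoM 1, and at 0.832 to 17.5 CPM in the other 6. The margin of WT MoM 1 over the next MoM library was 6.28-fold for Sox17, the widest of the 34 genes.

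Of the channel and receptor genes, Aqp1, the water channel, which bile duct cells and red cells also make, stood at 1830 CPM in TG Kupffer 2 and 1574 CPM in WT MoM 1, at 68.0 to 599 CPM in the other MoM libraries and at 23.5 to 88.8 CPM in the other Kupffer libraries. Per kilobase of exon it had the highest mean of the set in the 2 leading libraries, 648 CPM per kilobase, followed by Clec4g with 369. Adgrf5, an adhesion GPCR of endothelium, stood at 1049 and 581 CPM in these libraries and at 11.8 to 328 CPM in the other 6. Plvap, which forms the diaphragms of endothelial pores, stood at 126 CPM in TG Kupffer 2 and 69.2 CPM in WT MoM 1, beside 58.5 CPM in WT MoM 2, and was lowest in TG MoM 1 with 3.24 CPM. Ramp2, a subunit of the adrenomedullin receptor, stood at 143 and 60.6 CPM and at 1.47 to 43.9 CPM in the other 6. Ramp2 shares 33.4% of its exon bases with Vps25, which stood at 29.2 to 70.2 CPM, so its values are uncertain.

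**Figure D2:**
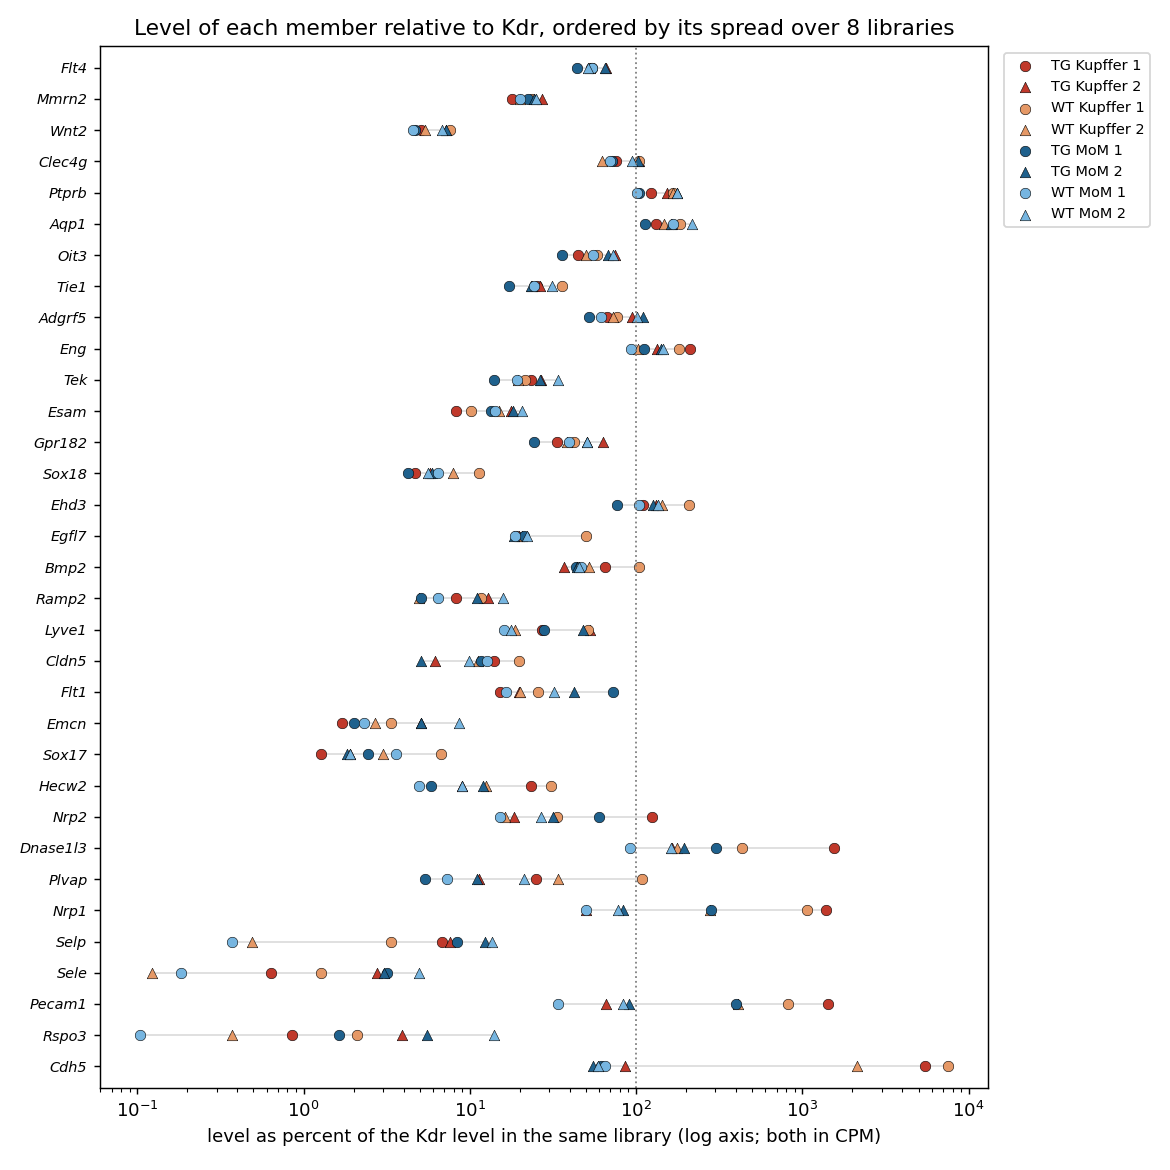
Level of 33 genes as percent of the Kdr level of the same library (log axis), 1 point per library, genes ordered by the spread of this ratio over the 8 libraries. The narrow rows at the top, from Flt4 on, keep a near constant ratio to Kdr, while Cdh5, Rspo3, Pecam1, Sele, Selp and Nrp1 at the bottom spread 28.0-fold to 136-fold.

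Dividing each gene by Kdr in the same library removes most of the difference between libraries and shows which genes did not move with it. The ratio compares libraries for 1 gene at a time, and says nothing of the level of a gene against another. It varied by less than 4-fold over the 8 libraries for 20 of the 33 other genes, with a median span of 2.83-fold, although Kdr itself differed by far more. Flt4 kept 44.1% to 66.2% of Kdr, the narrowest range, and Mmrn2 spanned 1.53-fold, Wnt2 1.66-fold, Clec4g 1.68-fold, Ptprb 1.74-fold and Aqp1 1.91-fold. The 4 libraries with the highest sums (TG Kupffer 2, WT MoM 1, TG MoM 2 and WT MoM 2) include both cell types and both genotypes. Over these, the ratio varied by less than 4-fold for 30 of the 33 genes, with a median span of 1.74-fold. The exceptions were Rspo3, Selp and Sele.

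Another group of genes had a share that did not follow Kdr. The ratio of Cdh5 to Kdr lay at 2142% to 7504% in TG Kupffer 1 and both WT Kupffer libraries, and at 55.1% to 86.1% in TG Kupffer 2 and the 4 MoM libraries. Pecam1 stood at 412% to 1423% of Kdr in these 3 Kupffer libraries, at 401% in TG MoM 1 and at 34.1% to 90.2% in the 4 libraries with the highest sums. Nrp1 stood at 279% to 1389% in the 3 Kupffer libraries, at 283% in TG MoM 1, and at 49.6% to 83.0% in the same 4. In TG Kupffer 1 and 2, Cdh5 stood at 973 and 953 CPM while Kdr stood at 17.8 and 1107 CPM, so its ratio differed there mainly through Kdr. TG Kupffer 2 and WT MoM 1 also carried Kupffer markers, and the part of Kupffer RNA in their Cdh5 level was not tested. Cdh5, Pecam1 and Nrp1 were thus not in proportion to Kdr, Cdh5 in the 3 Kupffer libraries and Pecam1 and Nrp1 in these and in TG MoM 1. Dnase1l3 did likewise, with 1545% of Kdr in TG Kupffer 1 and 433% in WT Kupffer 1, against 92.4% to 304% in the rest, as did Plvap in WT Kupffer 1 with 108% of Kdr, against 5.37% to 33.7% elsewhere.

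The endothelial profile was not the same in each of the 4 libraries. The ratio to Kdr in WT MoM 1 was the lowest of the 4 for 23 of the 33 genes, a count that moves with its own Kdr level. Rspo3 stood at 3.89% of Kdr in TG Kupffer 2, 5.51% in TG MoM 2 and 14.0% in WT MoM 2, but at 0.104% in WT MoM 1. Selp stood at 7.55%, 12.4% and 13.5% in the same order, and at 0.372% in WT MoM 1. Sele stood at 2.76%, 3.04% and 4.92%, and at 0.183% in WT MoM 1. Cldn5 went the other way, with 12.7% of Kdr in WT MoM 1 against 5.08% to 9.88% in the other 3. Sox17 stood at 3.62% in WT MoM 1 against 1.84% to 1.91%. Lyve1 stood at 52.8% and 47.8% in TG Kupffer 2 and TG MoM 2. It stood at 16.1% and 17.8% in WT MoM 1 and WT MoM 2. The remaining libraries did not keep this split by genotype. Lyve1 stood there at 51.3% in WT Kupffer 1, 18.6% in WT Kupffer 2, 27.2% in TG Kupffer 1 and 28.1% in TG MoM 1. Over the 4 libraries, both TG libraries stood above both WT libraries for 5 of the 33 genes and below for 3. With 2 libraries on each side, drawn from different cell types, no test was made.

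Lists for the zones of the lobule were read the same way. Of 7 genes listed for central vein endothelium, 0 stood higher in both TG Kupffer 2 and WT MoM 1 than in the other 6 libraries. Of all genes tested, 7.85% did so, so 0 of 7 is near that share. Their ratio to Kdr in WT MoM 1 was the lowest of the 4 libraries for 4 of the 7, and had a median of 0.409 of the lowest of the other 3. For 7 genes listed for periportal and arterial endothelium the ratio in WT MoM 1 was likewise the lowest for 4 of the 7, and the same median was 0.920. Of these 7, 4 stood higher in both TG Kupffer 2 and WT MoM 1 than in the other 6, beside 7.85% of all genes. Some list genes are also made by macrophages and stem cells, such as Msr1 and Kit, which have the highest mean of these lists. Chosen after its values were seen, Wnt9b, a Wnt ligand of the central vein, stood at 29.7 CPM in TG Kupffer 2 and 22.5 CPM in WT MoM 2, and at 3.21 CPM in WT MoM 1. Likewise chosen, Vwf, von Willebrand factor of larger vessels, stood at 154 CPM in TG Kupffer 2, 136 CPM in WT MoM 2 and 27.6 CPM in WT MoM 1. Not all genes of the central list stood low in WT MoM 1. Also chosen after its values were seen, Kit stood at 145 CPM in TG Kupffer 2, 153 CPM in WT MoM 2 and 159 CPM in WT MoM 1. Cd34, chosen in the same way, stood at 42.1, 72.7 and 64.2 CPM in the same order. Lymphatic endothelium was nearly unseen: 5 genes summed to 0.602 to 37.8 CPM, and Ccl21a was at 0 counts in 4 libraries. For all 5 of these the ratio to Kdr in WT MoM 1 was also the lowest of the 4 libraries (same median 0.436). It was the lowest for 19 of the 24 other endothelial genes too (same median 0.779). A low ratio in WT MoM 1 was thus not particular to the central list.

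**Figure D3:**
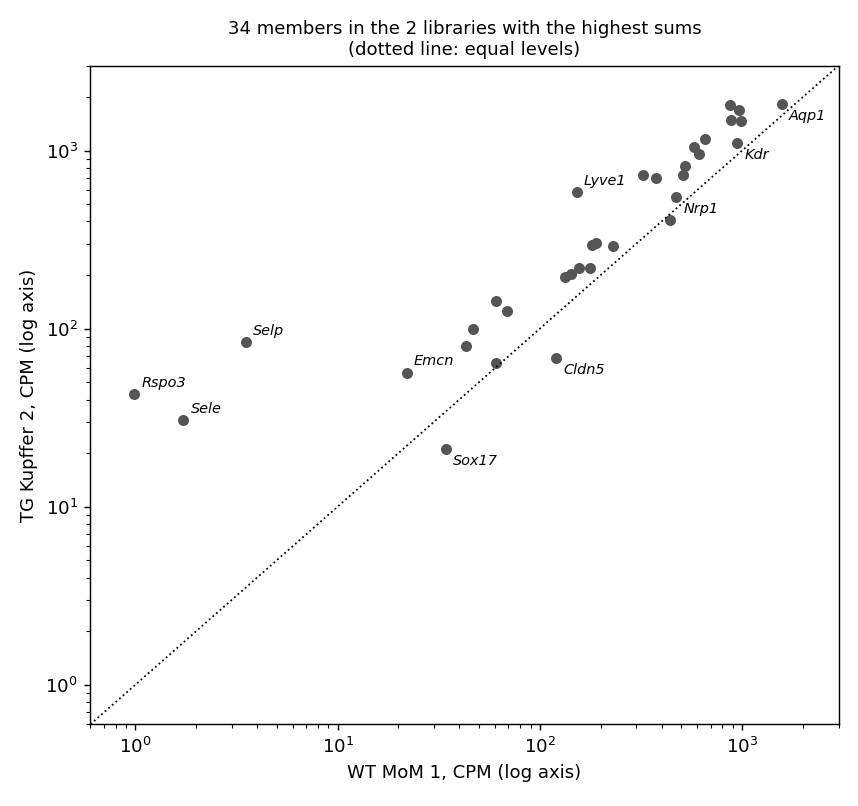
The 34 genes in WT MoM 1 (horizontal axis) against TG Kupffer 2 (vertical axis), in TMM-scaled CPM on log axes, with equal levels on the dotted line. Of the 34 points, 31 lie above the line by a median of 1.61-fold over all 34, Cldn5, Sox17 and Bmp2 lie below it, and Rspo3, Selp and Sele lie far to the left.

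Set directly against each other, TG Kupffer 2 was above WT MoM 1 for 31 of the 34 genes, with a median ratio of 1.61. The ratio ran from 0.573 for Cldn5 to 43.6 for Rspo3. TG MoM 2 and WT MoM 2, from different genotypes, were close to each other: the median ratio was 1.04, from 0.421 for Rspo3 to 2.88 for Lyve1. Within groups, TG MoM 1 lay below TG MoM 2 for all 34 genes, TG Kupffer 1 below TG Kupffer 2 for 33, WT Kupffer 1 below WT Kupffer 2 for 30 and WT MoM 2 below WT MoM 1 for 30.

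**Figure D4:**
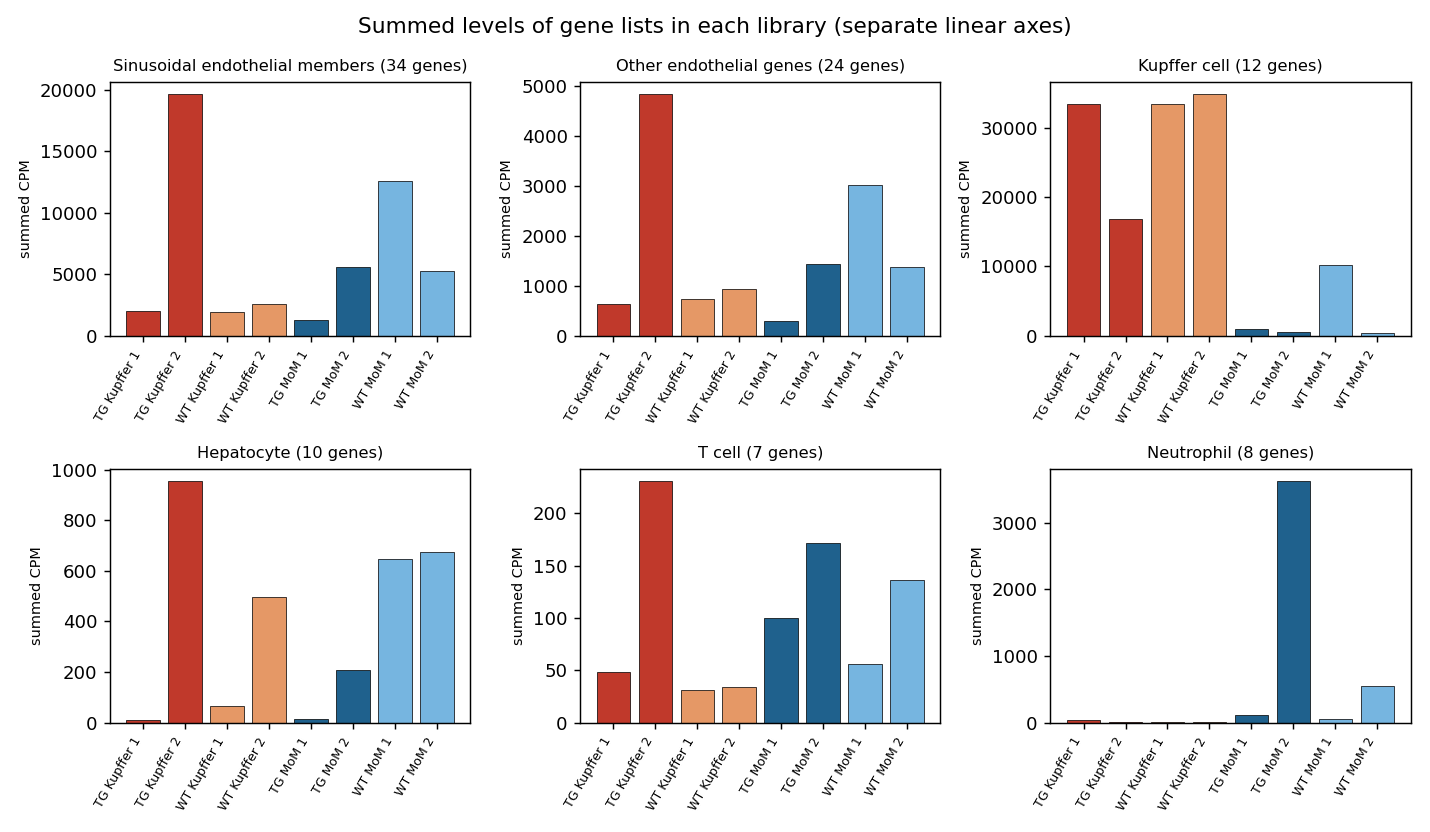
Summed TMM-scaled CPM of 6 gene lists in each library, with bars starting at 0 and a separate linear axis for each list. The endothelial lists peak in TG Kupffer 2 and WT MoM 1, where the Kupffer list is lower than in the other Kupffer libraries and higher than in the other MoM libraries, while the hepatocyte and neutrophil lists follow other orders.

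RNA of other liver cells moved in part with these genes. Summed over 10 hepatocyte markers, the level was 954 CPM in TG Kupffer 2, 675 CPM in WT MoM 2, 647 CPM in WT MoM 1, 496 CPM in WT Kupffer 2 and 209 CPM in TG MoM 2, and 11.3 to 67.2 CPM in the other 3. All 10 were detected in each library, save Apoc3, at 0 in TG Kupffer 1. Of the 10, 4 stood higher in both TG Kupffer 2 and WT MoM 1 than in the other 6, beside 7.85% of all genes. Albumin (Alb) stood at 654 CPM in TG Kupffer 2 and 5.37 CPM in TG Kupffer 1, but at 320 CPM in WT Kupffer 2, where Kdr was only 60.7 CPM. The 7 T cell markers, of which none was at 0, summed to 231 CPM in TG Kupffer 2 and to 55.7 CPM in WT MoM 1, with 100 to 172 CPM in the other MoM libraries. The 8 neutrophil markers summed to 3626 CPM in TG MoM 2 and to 15.7 CPM in TG Kupffer 2 and 57.3 CPM in WT MoM 1. The 7 cholangiocyte markers summed to 349 CPM in WT MoM 2 and to 2.15 to 52.5 CPM elsewhere, with Krt19 at 0 in 4 libraries. Most of the largest of these sums was Spp1, at 288 CPM in WT MoM 2, 44.4 CPM in TG Kupffer 2 and 39.7 CPM in TG MoM 2. The 10 markers of stellate cells and fibroblasts summed to 306 CPM in TG Kupffer 2 and to 16.4 to 168 CPM in the other 7. What part RNA of other cells has in the sinusoidal endothelial levels was not tested.

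The ligands of these receptors were read as a list of 7 VEGF and angiopoietin genes. Vegfa, the main ligand of Kdr, had the highest mean, with 93.7 to 103 CPM in TG MoM 1, TG MoM 2 and WT MoM 2, 41.4 CPM in WT MoM 1 and 1.12 to 11.9 CPM in the Kupffer libraries. The edgeR test called 0 of the 6 ligands tested in each comparison. At most 2 were at an unadjusted edgeR p under 0.05, in MoM against Kupffer cells of WT and of TG mice. Of all 15254 genes, 3873 (WT) and 3881 (TG) were at such a p there. DESeq2 called 3 of 7 as higher in WT MoM than in WT Kupffer cells (Vegfa, Angpt1 and Vegfc, beside 18.4% of all genes). It called Vegfa also in TG (beside 17.4%). Of the 9 genes of the BMP and iron axis, edgeR called 0. At most 5 were at an unadjusted edgeR p under 0.05, in MoM against Kupffer cells of TG mice, beside 3881 of all 15254 genes. DESeq2 called 5 as lower in TG MoM than in TG Kupffer cells (Acvrl1, Smad6, Id1, Id2 and Id3, beside 17.4% of all genes). It called 1, Bmp6, as higher in WT MoM than in WT Kupffer cells (beside 18.4%). Id2, a transcriptional target of BMP signals, had the highest mean of these, with 575 to 932 CPM in the Kupffer libraries and 369 to 517 CPM in MoM.

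The first comparison asked how the transgene changes Kupffer cells. Log2 fold changes were positive, higher in TG, for 33 of the 34 genes and negative for Cdh5, but the direction did not hold without TG Kupffer 2. The median log2 fold change was 3.90, beside 0.03 over all genes, and it was -1.06 when TG Kupffer 2 and WT MoM 1 were left out, with 5 genes positive and 29 negative. EdgeR's quasi-likelihood test with Benjamini-Hochberg adjustment called 0 of the 34 genes and 0% of all genes. At an unadjusted edgeR p under 0.05 stood 6 of the 34, beside 906 of all 15254 genes. DESeq2 called 6 (Selp, Nrp2, Dnase1l3, Sele, Ramp2 and Lyve1, all higher in TG), beside 1.89% of all genes. Without TG Kupffer 1, edgeR called 1 gene, Nrp2, beside 1.61% of all genes, in a fit that leaves TG Kupffer 2 as the only TG Kupffer library and assumes that it varies like the other groups.

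In this comparison Nrp2 had a log2 fold change of 3.85 ± 1.10 (SE) and Dnase1l3 of 3.53 ± 1.02, each with an edgeR adjusted p of 0.730. Selp had 6.59 ± 2.36, Kdr 3.86 ± 1.84, Clec4g 4.40 ± 1.93 and Nrp1 1.19 ± 0.51, each with the same edgeR adjusted p of 0.730. Cdh5 had -0.42 ± 0.80 (edgeR adjusted p = 0.930). Without TG Kupffer 2 the value of Kdr was -1.06 and that of Clec4g was -0.98. Both TG Kupffer libraries lay above both WT Kupffer libraries for 5 of the 34 genes, Nrp1, Nrp2, Dnase1l3, Pecam1 and Selp (14.7%, beside 16.7% of all genes). That share is near the one over all genes. The authors' deposited table of 179 genes for TG against WT, which does not name the cell type, lists 5 of the 34. In the authors' deposited table, Selp has a log2 fold change of 6.62 ± 1.45 (adjusted p = 0.000926), Dnase1l3 3.55 ± 0.82 (0.00234), Nrp2 3.87 ± 0.95 (0.00552), Sele 6.74 ± 1.82 (0.0199) and Rspo3 6.23 ± 1.72 (0.0249). The edgeR values of these 5 genes for TG against WT ran from 3.53 to 6.68 in Kupffer cells and from -1.20 to 0.03 in MoM. The deposited values are thus close to those of Kupffer cells and not to those of MoM. In the counts, TG Kupffer 1 stood at 0.113 CPM for Sele and at 0.151 CPM for Rspo3, below WT Kupffer 1 for both, so the higher TG mean lay in TG Kupffer 2.

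In MoM the fold changes of TG against WT were negative for all genes but Selp, and Cdh5 was negative in both subsets. Their median was -1.56 on the log2 scale, beside -0.04 over all genes, with 33 of 34 negative. It was -0.71 without WT MoM 1, -0.72 without TG MoM 1, -1.93 without WT MoM 2 and -3.45 without TG MoM 2, and 0 of the 34 were called in each of these fits. The exception, Selp, was at 0.03 and turned negative with other size factors. EdgeR called 0 of the 34 genes and 0% of all, and DESeq2 called 0, beside 1% of all genes. At an unadjusted edgeR p under 0.05 stood 0 of the 34, beside 987 of all 15254 genes. Cdh5 had -1.95 ± 0.83 (edgeR adjusted p = 0.757), Cldn5 -2.73 ± 1.44 (0.772), Nrp1 -0.72 ± 0.51 (0.828), Kdr -1.78 ± 1.69 (0.874) and Clec4g -1.40 ± 1.71 (0.900). Both TG MoM libraries lay below both WT MoM libraries for 12 of the 34 (35.3%, beside 20% of all genes), which were Tek, Tie1, Oit3, Ehd3, Cdh5, Esam, Cldn5, Emcn, Egfl7, Aqp1, Plvap and Ramp2. Without TG Kupffer 2 and WT MoM 1 together the median was -0.76.

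**Figure D5:**
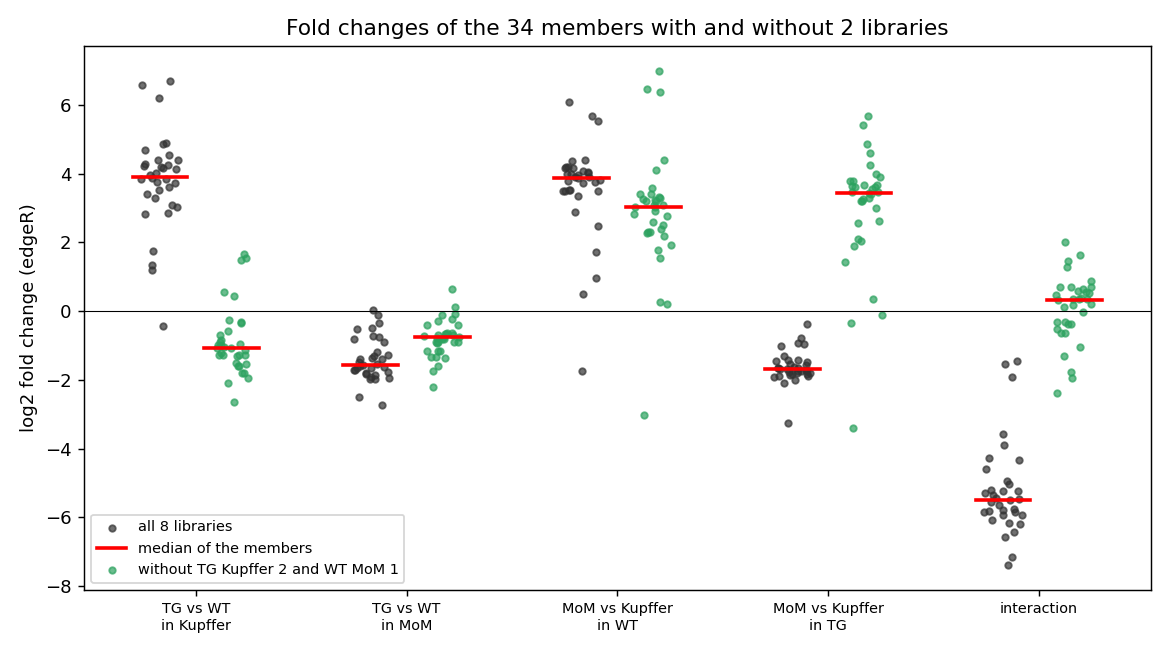
Log2 fold changes of the 34 genes from edgeR in the 5 comparisons, with all 8 libraries (dark points) and without TG Kupffer 2 and WT MoM 1 (green points). Red bars are medians over the 34 genes. The median turns from 3.90 to -1.06 in TG against WT Kupffer cells and from -1.69 to 3.44 in MoM against Kupffer cells of TG mice.

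MoM of WT mice carried more sinusoidal endothelial RNA than WT Kupffer cells for all but 2 genes, whichever WT MoM library is read. Both WT MoM libraries lay above both WT Kupffer libraries for 32 of the 34 genes (94.1%, beside 38.5% of all genes). The exceptions were Pecam1 and Cdh5, and Cdh5 was lower in both MoM libraries. The median log2 fold change was 3.87, beside 0.11 over all genes, and 3.03 without TG Kupffer 2 and WT MoM 1. EdgeR called 0 of the 34, beside 1.17% of all genes. At an unadjusted edgeR p under 0.05 stood 4 of the 34, beside 3873 of all 15254 genes. Nrp2 had 3.80 ± 1.10 (edgeR adjusted p = 0.118), Dnase1l3 2.88 ± 0.99 (0.151), Cldn5 3.86 ± 1.51 (0.183), Kdr 3.98 ± 1.85 (0.230), Clec4g 4.05 ± 1.90 (0.231), Cdh5 -1.73 ± 0.82 (0.235) and Nrp1 0.98 ± 0.51 (0.265).

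The count of calls in this comparison depended on the fit. DESeq2 called 22 of the 34, all higher in MoM, beside 18.4% of all genes. EdgeR on only the 4 WT libraries called 21, beside 10.9%. Without TG Kupffer 1 it called 4 (Nrp2, Flt1, Cldn5 and Dnase1l3), beside 8.63%, and without TG Kupffer 2 the same 4, beside 9.03%. Without TG Kupffer 2 and WT MoM 1 it called 6 (Sele, Nrp2, Selp, Flt1, Rspo3 and Cldn5), beside 17.1%, with a single WT MoM library assumed to vary like the others.

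In TG mice the fold changes were negative, also for the 33 genes that were positive in WT. All 34 genes had a lower mean in MoM than in Kupffer cells, with a median log2 fold change of -1.69, beside -0.04 over all genes. Without TG Kupffer 2 and WT MoM 1 the median was 3.44, with 31 genes positive. EdgeR called 0 of the 34, beside 2.5% of all genes. At an unadjusted edgeR p under 0.05 stood 1 of the 34, beside 3881 of all 15254 genes. Cdh5 had -3.26 ± 0.87 (edgeR adjusted p = 0.0902), Nrp1 -0.94 ± 0.51 (0.306), Pecam1 -0.95 ± 0.54 (0.323), Clec4g -1.75 ± 1.73 (0.567) and Kdr -1.66 ± 1.69 (0.577). DESeq2 called 1, Cdh5, beside 17.4% of all genes. Without the 2 leading libraries edgeR called Flt1 as higher and Cdh5 as lower in MoM, beside 13.6% of all genes. Both TG MoM libraries lay below both TG Kupffer libraries for 2 of the 34, Nrp1 and Cdh5 (5.88%, beside 23.8% of all genes). Without TG Kupffer 2, Kdr had a value of 3.20 and Clec4g of 3.56.

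The interaction, the effect of the transgene in MoM minus that in Kupffer cells, had a median of -5.49 on the log2 scale over the 34 genes, all negative, beside -0.12 over all genes. EdgeR called 0 of the 34 and 0% of all genes, and DESeq2 called 0, beside 0.288% of all genes. At an unadjusted edgeR p under 0.05 stood 5 of the 34, beside 980 of all 15254 genes. Dnase1l3 had -4.34 ± 1.36, Nrp2 -4.60 ± 1.46, Cldn5 -5.54 ± 2.04, Nrp1 -1.91 ± 0.72, Kdr -5.63 ± 2.49 and Clec4g -5.80 ± 2.55 (edgeR adjusted p = 0.626 for each). Cdh5 had -1.53 ± 1.14 (0.682). Without TG Kupffer 2 and WT MoM 1, which lie on opposite sides of this contrast, the median was 0.33, with 21 genes positive and 13 negative.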

How the data were processed

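PolyA RNA of liver macrophages was sequenced in 8 libraries, grouped by their titles into 4 groups of 2. STAR 2.5.2b and mm10 are the aligner and build that the submitters' processing notes name. Which counter, annotation and strandedness the authors used is not given in the sources used here. For each library the authors deposited raw counts by gene symbol, as whole numbers. Among counts below 20, 65.0% to 68.0% were even, so mates may have been counted separately, which would overstate the number of fragments. Totals were 26190194 to 30308132, so that 1 count equals 0.0309 to 0.0378 TMM-scaled CPM. The authors' deposited table of 179 genes holds, per the file headers, DESeq2 columns: the mean normalized count, the log2 fold change and its SE, the Wald score, the p-value and the adjusted p-value.

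All 8 libraries were fitted in edgeR 4.0.16 (R 4.3.3) with filterByExpr, which kept 15254 genes, TMM scaling and the quasi-likelihood test. Genes were called at a Benjamini-Hochberg adjusted p below 0.05 over all genes. The SE is the log2 fold change divided by the square root of F. DESeq2 1.42.0, median-of-ratios size factors, no filter, the replicate number as a block, only the 4 libraries compared, each library left out, and both leading libraries left out were the alternatives. Positions, exon lengths and overlaps come from GENCODE M21 (GRCm38, the assembly of mm10) and promoters from RefSeq (GRCm38.p6).

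The 34 genes, the 18 lists of other genes (158 entries, 2 not in the files) and the 2 libraries set apart were chosen with earlier results of these data known. Any of the 34 may be named with its levels. Fold changes are printed for Kdr, Clec4g, Cdh5 and Nrp1 in every comparison and for the 3 genes of the set with the smallest p where none was called. Genes of other lists are named where they have the highest mean of their list or define another cell type. Genes of the ligand list and of the BMP and iron list are also named where DESeq2 called them. Others are said to be chosen after their values were seen. Python 3.11.15 with pandas 2.3.3, numpy 2.4.6 and matplotlib 3.10.9 made the tables and figures.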

Additional observations from a re-analysis of the deposited data

Results flagged for a closer look

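Nrp1 was the only gene of the 34 for which both subset comparisons separated fully in opposite directions. Of all genes tested, 38.5% lay wholly higher in MoM in WT, and 23.8% lay wholly lower in MoM in TG. The share of all genes that did both was not counted, so Nrp1 is only described here. Both TG Kupffer libraries (247 and 550 CPM) lay above both TG MoM libraries (170 and 246 CPM), and both WT MoM libraries (472 and 216 CPM) lay above both WT Kupffer libraries (181 and 169 CPM). The margin was narrow in TG, where TG Kupffer 1 and TG MoM 2 stood at 247.2 and 246.3 CPM. The interaction was -1.91 ± 0.72 on the log2 scale, with an edgeR adjusted p of 0.626, so the difference between genotypes did not pass the test. Outlying libraries were not tested for, since each group holds 2.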

How the results depend on the processing

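With 2 libraries in a group, any group mean can rest on 1 library, and the spread between libraries of 1 group was as wide as most differences between groups. Of the alternative values of single log2 fold changes, 395 kept their direction and their side of the threshold, 22 newly passed it and 10 reversed. In Kupffer cells, TG against WT, without TG Kupffer 2 the value of Kdr turned to -1.065 and that of Clec4g to -0.9774 (both leading libraries left out: -1.065 and -0.9778), and leaving out each library in turn gave -1.065 to 4.995 for Kdr and -0.9774 to 5.365 for Clec4g. In TG mice, MoM against Kupffer cells, they turned to 3.199 and 3.555 both without TG Kupffer 2 and without both leading libraries, with -3.221 to 3.199 and -3.769 to 3.555 on leaving out each library. In the interaction they turned to 0.3871 and 0.3462 without both. The cause was not tested.

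The number of the 34 genes called was 0 in each of the 5 comparisons and stayed at 0 with the replicate number as a replicate block. With each library left out it ranged from 0 to 1 for TG against WT in Kupffer cells and from 0 to 4 for MoM against Kupffer cells in WT, and was 0 in the other 3 comparisons. DESeq2 called 6, 22 and 1 for TG against WT in Kupffer cells, MoM against Kupffer cells in WT and the same in TG. Only the 4 libraries compared gave 21 in the WT subset comparison. Leaving out both leading libraries gave 6 there and 2 in TG. Deviations of same-numbered libraries from their group means correlated by 0.59 between TG Kupffer and TG MoM. They correlated by -0.0725 between WT Kupffer and WT MoM, and by 0.125 to 0.271 over the other pairs of groups. In TG, same-numbered libraries thus deviated together, and in WT they did not. The labels do not say whether such libraries share an animal, so the main fit does not pair them.

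Without the 3 genes with the highest mean level the sum fell to 585.3 CPM in WT Kupffer 1 and 1073 CPM in WT Kupffer 2, since Cdh5 is among them. The 29 genes above in both leading libraries were 29 with the 2 other scalings and with no filter. With Cdh5 in place of Kdr, 0 genes kept a ratio within 4-fold over the 8 libraries, and 29 did over the 4 leading ones. With Ptprb the counts were 22 and 29. Levels below 1 CPM rest on few counts.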

Other observations

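Further endothelial genes outside the set, chosen after their values were seen, were high in TG Kupffer 2 and varied in the order of the other libraries. F8, clotting factor VIII, which sinusoidal endothelium makes, stood at 647 CPM in TG Kupffer 2, 231 CPM in TG MoM 2, 220 CPM in WT MoM 1 and 145 CPM in WT MoM 2, and at 6.07 to 22.9 CPM in the other 4 libraries. Robo4, an endothelial guidance receptor, stood at 422 CPM in TG Kupffer 2 and 239 CPM in WT MoM 1, and at 2.80 to 119 CPM in the other 6. Ltbp4, which binds latent TGF-β and is listed for periportal endothelium, was highest in WT MoM 1, with 848 CPM, followed by 603 CPM in TG Kupffer 2 and 230 CPM in WT MoM 2, and stood at 7.14 to 121 CPM in the other 5. Angpt2, the angiopoietin that endothelium itself makes, stood at 38.1 CPM in TG Kupffer 2, 10.6 CPM in TG MoM 2 and 8.31 CPM in WT MoM 1, and at 0.215 to 3.25 CPM in the other 5. Fcgr2b, an Fc receptor of sinusoidal endothelium and of leukocytes, stood at 909 CPM in TG Kupffer 2, 688 CPM in WT MoM 1 and 227 to 579 CPM in the other MoM libraries, and at 9.80 to 28.9 CPM in the remaining Kupffer libraries.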
